A study of Mus musculus with 7 samples.

Results

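The histone genes of the mouse were followed through single-cell libraries of splenic T cells. The C57bl/6 mice had been given lymphocytic choriomeningitis virus (LCMV), strain Armstrong. Members were taken by symbol: every gene matching Hist1h to Hist4h, the replication-dependent or cluster histones, and every gene starting with H2af or H3f, the variant histones. This gave 81 of the 27998 genes in the deposited tables. There were 69 cluster genes, of which 6 were linker histone H1, 19 H2A, 19 H2B, 12 H3 and 13 H4 genes, and there were 12 variant genes. Of the cluster genes 53 lie on chromosome 13, 11 on chromosome 3, 2 on chromosome 11 and 1 on chromosome 6, and 2 had no entry in the annotation used.

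The study compared T cells that bind the viral tetramer GP66:I-Ab, which marks LCMV-specific CD4+ cells, with and without the transcription factor Thpok, which holds CD4+ T cells to their lineage. Thpok-deleted GP66+ cells (Ox40-Cre+ Thpok fl/fl RosaYFP+) were taken at day 30 and at day 7 after infection, each beside Thpok-sufficient cells (Ox40-Cre+ Thpok wt/wt RosaYFP+) of the same day, and GP66+ cells of wild type mice were taken at day 7. The Ox40-Cre allele is active in activated T cells and was carried by the deleted and the sufficient cells alike, so Thpok is lost after activation and not in development. Each of those 5 groups was 1 library. Total CD44high cells of wild type mice at day 7, sorted as CD4+ and CD8+ and mixed in equal parts, gave 2 libraries, named total 1 and total 2 here. The sources used here do not say how many animals entered a library, and the ages are not given.

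DNA in the nucleus is wound on cores of H2A, H2B, H3 and H4, and linker H1 binds where the DNA enters and leaves the core. A cell that copies its genome needs new histones at once, and the cluster genes supply them in S phase. Their messages classically carry no poly(A) tail and end just after a short stem-loop that is bound by the protein SLBP, the stem-loop binding protein. Variant histones are made in all phases as polyadenylated messages and replace the core histones at particular places: H2A.Z (H2afz and H2afv) at regulatory regions, H2A.X (H2afx) at DNA breaks where it is phosphorylated, macro-H2A (H2afy) in repressed chromatin, and the H3 variant made by H3f3a and H3f3b in transcribed genes. T cells that answer a virus divide quickly and then come to rest as memory cells.

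The libraries were made by priming from poly(A), so the ending of each message bears on what can be counted. The stem-loop and the bases beside it are shown for the genes on which the results turn, read from the GENCODE vM21 transcripts on the strand of the message (GRCm38, the build called mm10). Capitals mark the match to the consensus histone stem-loop, searched on the message strand, in the order linker H1, H2A, H4 and the variant H2afx.
Hist1h1c: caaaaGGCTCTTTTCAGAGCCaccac
Hist1h2ap: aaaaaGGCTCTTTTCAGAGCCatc
Hist3h2a: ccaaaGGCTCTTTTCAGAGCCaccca
Hist1h4c: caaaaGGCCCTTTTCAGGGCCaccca
Hist1h4i: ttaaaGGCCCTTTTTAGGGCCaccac
Hist1h4n: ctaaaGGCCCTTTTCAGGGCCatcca
H2afx: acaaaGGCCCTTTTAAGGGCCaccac
Of the 67 cluster genes with an annotated transcript, 44 held the motif, and of the 12 variants H2afx alone did, against 0.362% of all 55450 annotated genes. What differed was the length of message after the stem-loop. The annotated Hist1h2ap transcript (chr13:21833026-21833507, minus strand) ends 3 bases after it and that of Hist1h4n (chr13:21831767-21832196, minus) 31 bases after it. Longer ends were annotated for Hist1h4i (chr13:22040636-22041362, minus) with 330 bases, Hist1h4c (chr13:23697635-23698454, minus) with 454, H2afx (chr9:44334694-44336077, plus) with 822, Hist1h1c (chr13:23738808-23740367, plus) with 840 and Hist3h2a (chr11:58954685-58956830, plus) with 1643.

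Cluster genes also resemble each other closely. In the last 300 bases of the transcript, 33 of 67 cluster genes shared at least 50% of their 57-base words with other genes, and 0 of 12 variants did. Hist1h2ap and Hist1h4m shared 100% of these words, Hist1h4n 88.5% and Hist1h2al, annotated as a processed pseudogene, 55.7%. Reads of the second mate were 98 or 57 bases per the labels, without a record of which library had which, and the treatment of reads with several matches is not stated. Counts of such genes are therefore uncertain as to which copy they belong to. Hist1h1e shared 100% of its words with the annotation of Hist1h2be, which overlaps it on the genome. H3f3aos is antisense to H3f3a and the strand rule of the counting is not stated, so reads of that pair could be split wrongly.

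The promoters of an S-phase linker gene, a linker gene with a long annotated end, and the 2 variants with the highest counts are shown because these genes behaved differently across the cell cycle classes described below. Each is the 250 bases before the start in RefSeq (GRCm38.p6), with the CCAAT box, the TATA box TATAAA and the H1 promoter element AAACACA in capitals on either strand. A CCAAT box on the other strand reads ATTGG.
Hist1h1b promoter, chr13:21780626-21780875, minus: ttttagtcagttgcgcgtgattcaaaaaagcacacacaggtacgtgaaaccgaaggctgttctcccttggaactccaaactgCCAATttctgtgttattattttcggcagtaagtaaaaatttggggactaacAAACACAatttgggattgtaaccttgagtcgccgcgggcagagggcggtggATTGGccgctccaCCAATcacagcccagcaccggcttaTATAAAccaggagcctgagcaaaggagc
Hist1h1c promoter, chr13:23738557-23738806, plus: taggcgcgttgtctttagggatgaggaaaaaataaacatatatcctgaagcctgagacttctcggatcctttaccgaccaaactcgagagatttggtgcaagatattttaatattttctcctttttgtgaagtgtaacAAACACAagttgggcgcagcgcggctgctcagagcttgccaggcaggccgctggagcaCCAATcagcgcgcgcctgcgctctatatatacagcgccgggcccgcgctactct
H2afz promoter (RefSeq symbol H2az1), chr3:137864237-137864486, plus: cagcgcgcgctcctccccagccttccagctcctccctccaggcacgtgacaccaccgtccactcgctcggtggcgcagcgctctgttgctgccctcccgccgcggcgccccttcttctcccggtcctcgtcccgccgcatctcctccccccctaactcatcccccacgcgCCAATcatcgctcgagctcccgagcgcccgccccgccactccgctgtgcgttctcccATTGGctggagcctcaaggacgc
H3f3b promoter, chr11:116024505-116024754, minus: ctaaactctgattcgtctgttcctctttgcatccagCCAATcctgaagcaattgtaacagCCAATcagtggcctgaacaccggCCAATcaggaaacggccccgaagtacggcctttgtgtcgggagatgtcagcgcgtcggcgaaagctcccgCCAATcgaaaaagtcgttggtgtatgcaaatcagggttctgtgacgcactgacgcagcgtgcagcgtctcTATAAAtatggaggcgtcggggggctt
RefSeq windows were found for 71 members. CCAAT on either strand was in 50 of 61 cluster windows and 7 of 10 variant windows, against 33.8% of all 32851 promoter windows. All 6 H1, all 18 H2A and all 15 H2B windows held it, with 8 of 10 H3 and 3 of 12 H4 windows. AAACACA was in 5 of 6 H1 windows, against 6.25% of all windows. TATAAA was in 29 of 61 cluster windows and 1 of 10 variant windows, against 12.4% of all. The octamer ATTTGCAT was in 7 of 18 H2A and 6 of 15 H2B windows, against 1.60% of all, in no cluster H1, H3 or H4 window, and in 1 of 10 variant windows, that of H3f3b shown above. H2A and H2B genes that face each other share part of their windows. None of these motifs contains another, and a match describes letters only.

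The libraries held 725 to 6651 cells kept as T cells with 1551772 to 31851958 unique molecular identifiers (UMIs, 1 per captured message) in them. Median depth was 2440 and 2017 UMIs per cell in the deleted and sufficient day 30 libraries and 4010 to 5900 at day 7. Levels are given as CPM, the UMIs of a gene scaled to 1000000 UMIs in the T cells of a library. These libraries count message ends, so a level is not scaled by length. Markers of T cells were detected 5 of 5 in every library. Zbtb7b, the gene of Thpok, had 1 UMI in each deleted library, against 32 and 391 in the sufficient libraries of day 30 and day 7. Cd8a was at 18.7 and 31.1 CPM in the deleted libraries of day 30 and day 7 and at 1.93 and 0.882 in the sufficient ones. The summed level of 5 erythroid marker genes was 6237 CPM in the deleted day 30 library and 0.21 to 207 in the other 6. Summed markers of NK cells were at 90.1 and 62.0 CPM in the deleted libraries and 9.67 and 3.93 in the sufficient ones. An NK-like cluster of 84 cells of the total libraries was kept, of which 50 in total 1 and 22 in total 2 counted as CD8-like and none as CD4-like. B cell markers summed to 14.9 to 53.7 and myeloid markers to 139 to 207 CPM. All 21 pairs of libraries together shared 133 cell barcodes, where 132.668 would be shared by chance. Single pairs lay on both sides, with 15 against 6.20 for total 2 and the sufficient day 7 library. The sufficient and deleted day 7 libraries shared 1, against 3.82. A sum over cells cannot tell fewer cells of a type from less RNA per cell.

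Total 1 joins 3 wells, and Hist1h2ap, which encodes an H2A, stood apart in it. Its level was 1169, 146.9 and 740.0 CPM in the 3 wells. Their ratio of 7.96 was the largest among the 2464 genes of at least 50 CPM, where the median ratio was 1.12 and 21 genes reached 2. Other abundant cluster genes varied less: Hist1h1b, linker histone H1, had 33.0, 34.4 and 45.5 CPM in the same wells. Cluster sums are therefore given with it and without it, or without it and Hist1h2al.

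Nearly all members were detected. UMIs were absent for 5 of 81: Hist1h2bq and Hist1h1t, a testis linker histone, among the cluster genes, and H2afb1, H2afb2 and H2afb3 among the variants. A mean of at least 10 CPM over the 7 libraries was reached by 13 cluster genes, 41 lay between 1 and 10, and 15 lay below 1. All 7 libraries held at least 1 UMI for 57 cluster genes. The summed cluster level was 1219 CPM in the deleted day 30 library, 571 in the sufficient day 30 library, 711 in the deleted day 7 library, 442 in the sufficient day 7 library, 619 in the wild type GP66+ library, 1085 in total 1 and 431 in total 2. Without Hist1h2ap the same sums were 979.7, 524, 617, 393, 576, 404 and 382, so total 1 is no longer above the wild type GP66+ library. The variants were more even, with sums of 5848, 4441, 6666, 5165, 5252, 5065 and 5082 in the same order of libraries. In barcodes of 1 to 100 UMIs, which hold RNA from outside cells, cluster sums were 637, 501, 672, 455, 403, 390.0 and 408, without Hist1h2ap 621, 488, 649, 446, 393, 252 and 392, and variant sums 8111, 5376, 8039.6, 5980.3, 5835, 5627 and 5453. Variant histone RNA outside cells was thus above its level in cells in all 7 libraries, and cluster RNA outside cells was below its level in cells in 6 of 7, or in 4 of 7 without Hist1h2ap.

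**Figure D1:**
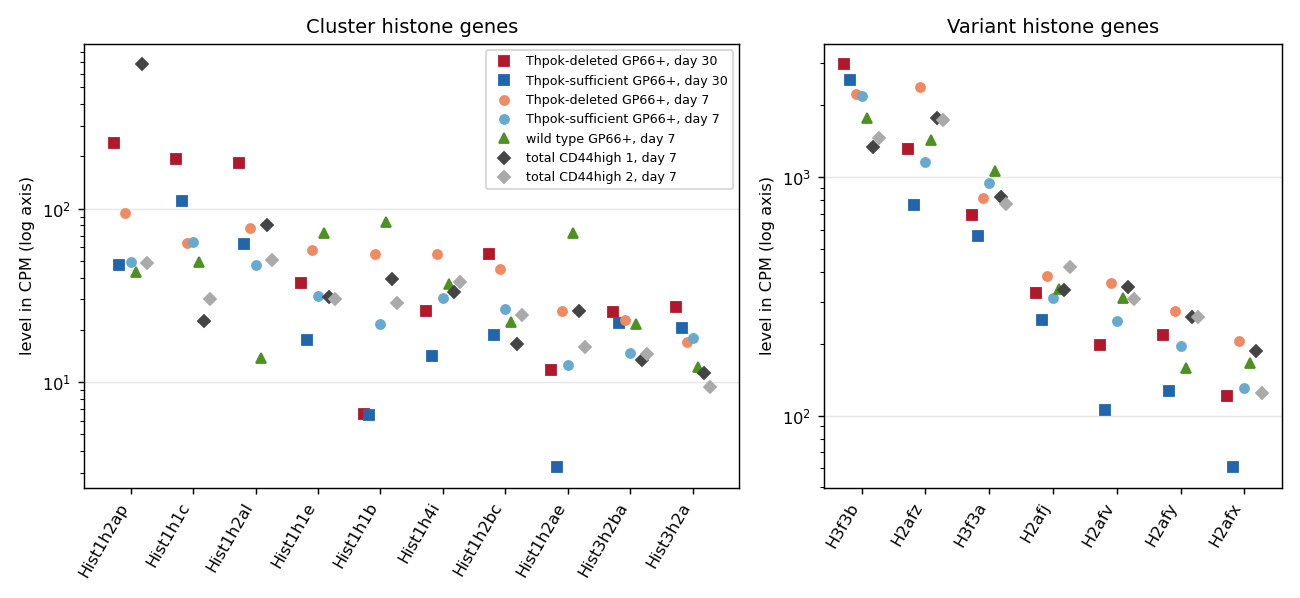
Levels of the leading cluster and variant genes, in CPM on a log axis, with 1 point per library. Hist1h2ap runs from 43.2 CPM in the wild type GP66+ library to 681 in total 1, and H3f3b runs from 2977 CPM in the deleted day 30 library to 1335 in total 1.

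Among the linker histones, Hist1h1c and Hist1h1b were ordered differently over the libraries. Hist1h1c was at 194, 110.2, 63.5, 63.9, 49.0, 22.6 and 30.1 CPM in the deleted day 30, sufficient day 30, deleted day 7, sufficient day 7, wild type GP66+, total 1 and total 2 libraries. It was highest at day 30 and lowest in the total cells. Hist1h1b was at 6.54, 6.44, 54.6, 21.7, 84.2, 39.5 and 28.6 CPM in that order of libraries, lowest at day 30. Hist1h1e, another linker histone, was at 37.4, 17.4, 57.8, 31.5, 72.7, 31.1 and 30.3. The 95% Poisson interval of Hist1h1c was 176 to 213 in the deleted and 94.3 to 128 in the sufficient day 30 library, and all intervals here cover counting error only.

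Of the H2A genes, Hist1h2ap was at 239, 47.0, 94.2, 49.4, 43.2, 681 and 48.5 CPM in the same order. Hist1h2al was at 183, 62.5, 77.7, 47.1, 13.8, 80.7 and 50.3. Both share their sequence with other H2A genes, and both were higher in the deleted day 30 library than in every GP66+ library of day 7. Hist1h2ae was at 11.7, 3.22, 25.8, 12.6, 72.4, 25.7 and 15.9, with its highest value in the wild type GP66+ library. Hist3h2a, whose annotated message runs far past its stem-loop, was at 27.1, 20.6, 17.1, 18.0, 12.2, 11.3 and 9.39. Its range was narrow by comparison with the other H2A genes named.

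The H2B gene Hist1h2bc was at 55.1, 18.7, 45.1, 26.5, 22.1, 16.6 and 24.5 CPM in the same order, and Hist3h2ba at 25.2, 21.9, 22.8, 14.7, 21.6, 13.3 and 14.5. Hist1h4i, the H4 gene with the most UMIs, was at 25.7, 14.2, 54.9, 30.5, 36.7, 33.0 and 37.8. For Hist1h2bc and Hist1h4i the deleted library was above the sufficient library on both days.

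The variants were led by H3f3b, with 2977, 2562, 2242, 2183, 1777, 1335 and 1465 CPM in the same order. H3f3a, which encodes the same H3 variant protein, was at 694, 566, 816, 943, 1064, 829 and 774. H3f3b was thus highest and H3f3a lowest at day 30. H2afz was at 1313, 765, 2384, 1154, 1435, 1771 and 1730.0, and H2afv, the other H2A.Z gene, at 198, 106, 359, 248.6, 312, 348 and 308. H2afx was at 121, 60.6, 205, 129.9, 166, 187 and 124. These 3 genes were all lowest in the sufficient day 30 library and highest in the deleted day 7 library. H2afj was at 327, 253, 386, 311, 339, 337 and 421 and H2afy at 218, 127, 274, 195, 158, 259 and 259.6. H3f3aos had 0, 4, 2, 4, 1, 9 and 6 UMIs in that order and H2afy2 0 to 7 per library, so neither level can be compared.

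To see which histone messages move with the cell cycle, each cell was thinned to 1500 UMIs and classed by summed UMIs of 28 genes of DNA replication and 25 genes of mitosis, none of them a histone. A cell with at least 4 UMIs of one list and more of it than of the other was called replication-high or mitosis-high, and a cell with at most 1 UMI of both was called cycle-low. These classes are ranges of a score and not cell types. At thresholds of 3, 4 and 6 UMIs, 2116, 1571 and 1102 cells were replication-high and 1555, 1386 and 1161 were mitosis-high, over all libraries. Replication-high and mitosis-high cells together were 4.49% and 1.22% of cells in the deleted and sufficient day 30 libraries, 44.8% and 16.9% in those of day 7, 19.03% in the wild type GP66+ library, and 15.5% and 24.3% in total 1 and total 2. The shares of day 30 moved most with the threshold, with 12.5% and 2.62% in the deleted and sufficient libraries at 3 UMIs and 2.46% and 0.524% at 6, and they were 1.99% and 0.561% without the top 5% of cells by UMIs. At a threshold of 4 UMIs these cells held 37.7% and 22.6% of cluster histone UMIs at day 30, 77.5% and 56.4% at day 7, 78.5% in the wild type library, and 87.4% and 65.1% in the total libraries. Without Hist1h2ap these shares were 25.6%, 16.7%, 75.3%, 52.2%, 77.04%, 74.6% and 62.4%. For variant histone UMIs the shares were 17.4%, 6.34%, 65.7%, 34.5%, 46.2%, 46.7% and 47.5%. Of all UMIs the same cells held 10.8%, 3.68%, 55.0%, 22.8%, 29.4%, 28.4% and 34.7%, in the same order of libraries. The cluster share was above the variant share in 7 of 7 libraries, with and without Hist1h2ap.

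Replication-high cells were compared with cycle-low cells of the same library in the 6 libraries with at least 20 cells of each class. Of 45 cluster genes tested, 40 rose and 0 fell by edgeR's quasi-likelihood test with library as block and a Benjamini-Hochberg adjusted p under 0.05, against 25.8% of all 9945 genes higher and 27.1% lower. The cluster median was 2.15 on the log2 scale, against -0.06 over all genes. The test's filter on low counts can keep a gene that reaches its cutoff in replication-high cells alone. Only a rise could be called for such a gene, so the counts and the median partly reflect which genes were kept. Of the 7 variants tested 6 rose, with a median of 0.29. By family, 12 of 13 H2A, 10 of 12 H2B, 8 of 8 H3, 6 of 7 H4 and 4 of 5 H1 genes rose. Without library as block 20 cluster genes rose, against 15.8% of all genes.

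Hist1h1b was the clearest linker histone. Its level in replication-high cells was 42.4 CPM in the deleted day 30 library, 75.1, 63.8 and 197 in the deleted, sufficient and wild type GP66+ libraries of day 7, and 94.7 and 53.2 in total 1 and total 2. In cycle-low cells it was 2.33, 5.34, 2.29, 4.42, 1.24 and 2.01 in the same libraries. The lowest replication-high value was above the highest cycle-low value, and the log2 difference was 5.24 ± 0.19 (SE; edgeR adjusted p = 2.5e-14). Hist1h1c did otherwise, with 96.8, 60.6, 57.7, 55.5, 24.2 and 27.4 CPM in replication-high cells and 165, 47.6, 52.5, 32.6, 17.0 and 27.3 in cycle-low cells. Its log2 difference of 0.21 ± 0.13 did not pass (edgeR adjusted p = 0.21). Replication-high and mitosis-high cells held 80.1% to 93.3% of Hist1h1b UMIs in the libraries of day 7, against 28.0% to 59.4% of those of Hist1h1c. They held 22.8% to 55.0% of all UMIs in these libraries.

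The H2A gene Hist1h2ap was higher in replication-high cells by 6.46 ± 0.24 on the log2 scale (edgeR adjusted p = 3.0e-14). Its levels there were 1846, 129.6, 139.7, 91.1, 1441 and 97.9 CPM in the deleted day 30, deleted day 7, sufficient day 7, wild type GP66+, total 1 and total 2 libraries, against 31.1, 4.37, 1.83, 0.762, 8.09 and 2.61 in cycle-low cells. Among the libraries compared, the deleted day 30 and total 1 libraries were highest in both classes. The sufficient day 30 library, not compared here, was above total 1 in cycle-low cells. Within total 1 the same order of wells held in each class, with 2797, 378 and 1439 CPM in replication-high cells and 15.6, 2.05 and 7.96 in cycle-low cells. Hist1h4i, an H4 gene, rose by 2.23 ± 0.14. Besides Hist1h1c, the 4 tested cluster genes that did not pass were Hist3h2a at -0.64 ± 0.32, Hist3h2ba at 0.17 ± 0.15, Hist4h4, an H4 gene, at 0.33 and Hist2h2be, an H2B gene, at 0.27. Of the variants, H2afx rose by 1.99 ± 0.13, H2afz by 1.77 ± 0.10 and H2afv by 0.89, while H2afy, H2afj and H3f3a rose by 0.29, 0.28 and 0.18 and H3f3b, at 0.16 ± 0.07, did not pass (edgeR adjusted p = 0.069).

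**Figure D2:**
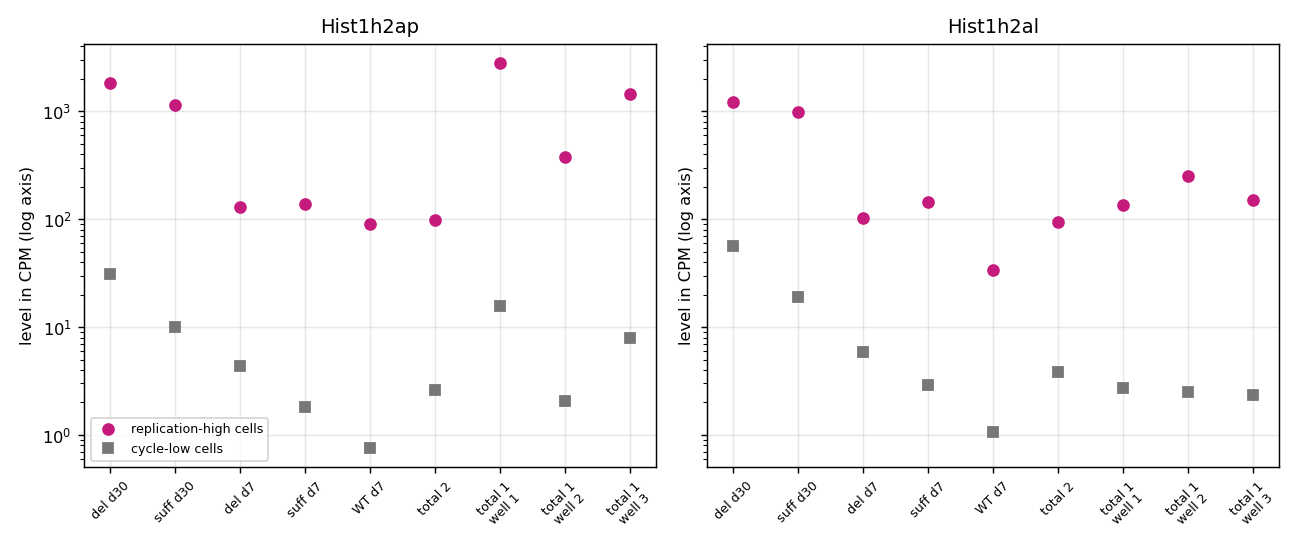
Levels in CPM on a log axis of the H2A genes Hist1h2ap and Hist1h2al in replication-high and cycle-low cells, by library, with total 1 split into its 3 wells (del and suff, Thpok-deleted and Thpok-sufficient GP66+; WT, wild type GP66+; the replication-high points of suff d30 hold 5 cells). Hist1h2ap in replication-high cells spans 378 to 2797 CPM among the wells, while cycle-low points lie below the replication-high ones for both genes in every library and well.

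**Figure D3:**
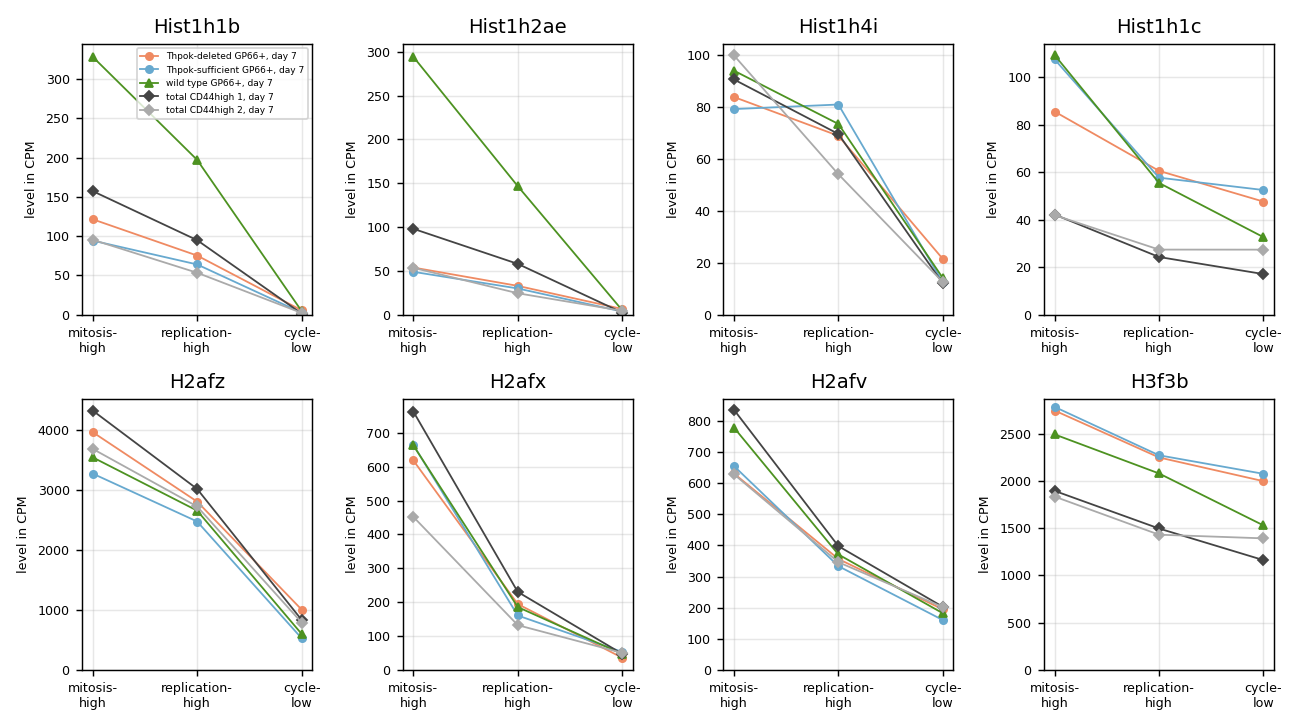
Levels of 8 histone genes in CPM, on linear axes that start at 0, in mitosis-high, replication-high and cycle-low cells of the 5 libraries of day 7, with 1 line per library. Hist1h1b is at most 5.34 CPM in cycle-low cells, while Hist1h1c overlaps between the classes.

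Mitosis-high cells were set against replication-high cells in 5 libraries of day 7. Of 44 cluster genes 28 rose and 0 fell, against 13.9% of all 9078 genes higher and 13.7% lower, with a cluster median of 0.76 on the log2 scale beside 0.02 over all genes. Of 7 variants 5 rose. Here too the filter can keep a gene that reaches its cutoff in mitosis-high cells alone, for which only a rise could be called. DESeq2 called 17 cluster genes higher, against 6.59% of all genes, and without library as block 4 cluster genes and 3 variants were higher, against 3.6% of all. The largest variant change was that of H2afx, which averaged 633 ± 114 CPM in mitosis-high cells and 180.3 ± 36.9 in replication-high cells, with 46.3 ± 6.54 in cycle-low cells (SD, n = 5 libraries). Its log2 difference between mitosis-high and replication-high cells was 1.81 ± 0.05 (edgeR adjusted p = 2.3e-26). H2afz averaged 3753 ± 402, 2731 ± 199 and 749 ± 191 CPM in mitosis-high, replication-high and cycle-low cells. It rose by 0.47 ± 0.03 between the first pair of classes. Hist1h1b averaged 159 ± 97.9, 96.8 ± 58.1 and 3.06 ± 1.74, and it rose by 0.73 ± 0.07. The large SD of Hist1h1b lies between libraries, and the difference is within them. Hist1h1c averaged 77.3 ± 33.6, 45.1 ± 17.7 and 35.4 ± 14.6 and rose by 0.77 ± 0.09. Hist1h2bc rose by 1.46 ± 0.12, while H2afy at -0.01 and H2afj at -0.05 did not pass.

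Among the genes of histone message processing and the histone chaperones, more rose than fell in replication-high cells, and more fell than rose in mitosis-high cells. Over all genes 25.8% were higher and 27.1% lower in replication-high cells, and 13.9% were higher and 13.7% lower in mitosis-high cells. Slbp, whose protein binds the stem-loops shown above, averaged 346 ± 58.1 CPM in mitosis-high, 571 ± 23.6 in replication-high and 105 ± 13.9 in cycle-low cells (SD, n = 5 libraries of day 7). It was higher in replication-high than in cycle-low cells by 2.28 ± 0.12 on the log2 scale, and it was lower in mitosis-high than in replication-high cells, with a log2 difference of -0.71 ± 0.06. Among 10 genes of histone transcription and message processing, 7 rose and 1 fell between replication-high and cycle-low cells, while 0 rose and 4 fell between mitosis-high and replication-high cells. Of 17 histone chaperones, which carry histones to DNA, 10 rose and 3 fell in replication-high cells. They were led by Chaf1a, of the complex that loads histones behind the replication fork, at 5.44 and Asf1b, which passes it H3 and H4, at 4.95. In mitosis-high cells 2 rose, near the share over all genes, and 5 fell, with Chaf1a at -0.76 and Hjurp, the chaperone of the centromere histone, at 0.72. Cenpa, that centromere histone, averaged 715 ± 87.2 CPM in mitosis-high and 164 ± 14.8 in replication-high cells. Of 9 genes of H2A.Z exchange 4 rose in replication-high cells, with Anp32e, which takes H2A.Z off, at 1.62.

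CD8-like cells were compared with CD4-like cells inside the total libraries, where 3474 and 1074 cells of total 1 and total 2 were CD8-like and 1440 and 550 were CD4-like. Among 44 cluster genes, CD8-like cells had 11 higher and 1 lower, against 18.5% of all 10201 genes higher and 19.2% lower, so the higher share of 11 in 44 was a little above the background and the lower share below it. Of 7 variants 5 were higher and 0 lower. DESeq2 called 5 cluster genes higher, against 7.37% of all genes, and without library as block 1 cluster gene and 2 variants were, against 5.19% of all. Without the NK-like cells, an alternative chosen after the data were seen, 11 cluster genes and 5 variants were higher. The medians were 0.33 for cluster genes and 0.41 for variants, beside -0.02 over all genes. By family 6 of 13 H2A, 2 of 5 H1, 2 of 12 H2B, 1 of 7 H4 and 0 of 7 H3 genes were higher. Cycling cells were also more frequent among CD8-like cells, with 8.73% and 21.1% replication-high in total 1 and total 2, against 4.46% and 8.38% of CD4-like cells. Mitosis-high cells were 12.4% and 13.1% of CD8-like cells and 6.27% and 5.10% of CD4-like cells. Of the replication genes 25 of 28, and of the mitosis genes 25 of 25, were higher in CD8-like cells.

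H2afz differed most among the variants, with 2224 and 2235 CPM in CD8-like cells of total 1 and total 2 and 1188 and 1067 in CD4-like cells. Its log2 difference was 1.06 ± 0.05 (SE; edgeR adjusted p = 9.5e-28). It kept that size in cycle-low cells alone, at 1.08 ± 0.06. H2afy was at 296 and 296 CPM in CD8-like cells and 206 and 221 in CD4-like cells, higher by 0.56 ± 0.07, and by 0.74 in cycle-low cells. H2afx was higher over all cells, with 214 and 136 against 166 and 104 CPM, by 0.45 ± 0.08. In cycle-low cells H2afx was lower in CD8-like than in CD4-like cells, with a log2 difference of -0.64 ± 0.13 (edgeR adjusted p = 9.6e-06). H3f3b, at 1287 and 1389 in CD8-like and 1423 and 1573 in CD4-like cells, did not pass over all cells (log2 difference -0.08 ± 0.05, edgeR adjusted p = 0.19) and was lower in cycle-low cells by the same test, at -0.20 ± 0.05.

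Among cluster genes Hist1h1b was at 47.9 and 33.1 CPM in CD8-like cells of total 1 and total 2 and at 28.0 and 25.3 in CD4-like cells, higher by 0.73 ± 0.12. Hist1h4i was at 41.6 and 47.2 against 23.1 and 30.9 CPM, higher by 0.84 ± 0.12. Hist1h2bc was at 20.2 and 30.9 against 10.4 and 16.8, higher by 1.0 ± 0.15. For all 3 the CD8-like values of each library lay above its CD4-like values. Hist1h2ap was at 808 and 61.3 in CD8-like and 538 and 34.9 in CD4-like cells, higher by 0.73 ± 0.07, and it was also higher in CD8-like cells in each of the 3 wells of total 1. Hist1h1c, at 22.1 and 29.4 against 21.5 and 28.6, did not pass, with a log2 difference of 0.12 ± 0.13. The 1 lower gene was Hist2h3b, an H3 gene, at 0.857 and 0.48 CPM in CD8-like and 1.89 and 2.96 in CD4-like cells. The test's filter on low counts kept it through CD4-like cells alone, so only a lower level in CD8-like cells could be called for it. In cycle-low cells 14 cluster genes could be tested, of which 5 were higher and 0 lower, and of 7 variants 4 were higher and 2 lower, against 15.6% of all 9057 genes in each direction. The 5 were Hist1h4c, Hist1h4i, Hist1h2bc, Hist3h2ba and Hist1h2ap.

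**Figure D4:**
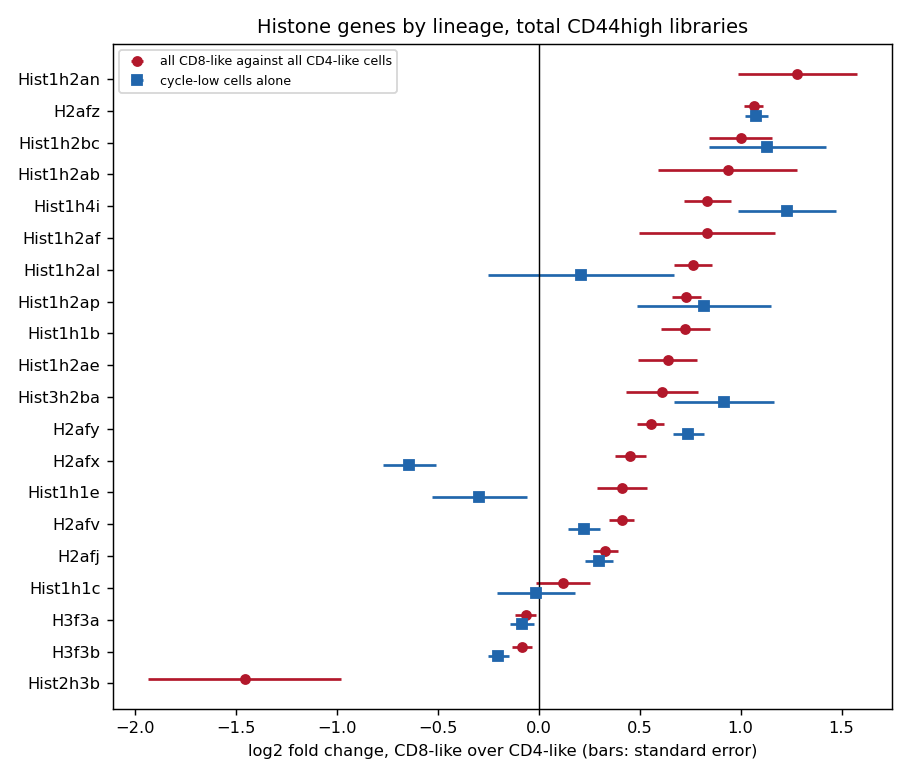
Log2 differences between CD8-like and CD4-like cells of the total libraries for the named histone genes, with SE, in all cells and in cycle-low cells. H2afz lies near 1 in both, and H2afx has opposite signs.

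Of the genes around them, CD8-like cells had 5 of 17 chaperones higher and 2 lower, led by Chaf1a at 1.17 and Asf1b at 0.93. Over all genes 18.5% were higher and 19.2% lower. Slbp was at 238 and 328 CPM in CD8-like and 171 and 192 in CD4-like cells, higher by 0.69 ± 0.07. H1f0, the linker histone of resting cells, lies outside the member rule and went the other way, at 15.9 and 12.2 in CD8-like and 46.4 and 34.5 in CD4-like cells, with a log2 difference of -1.45 ± 0.13.

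GP66+ CD4-like cells of the wild type and sufficient mice were then set against total CD4-like cells at day 7. By edgeR's quasi-likelihood test 0 of 44 cluster genes and 0 of 7 variants passed, against 0.477% of all 10264 genes higher and 0% lower. At an unadjusted p under 0.05, 4 cluster genes were higher and 1 lower, and 1 variant was higher, against 6.82% of all genes higher and 6.05% lower, so the 4 of 44 lay near the background. DESeq2 called 1 cluster gene, against 1.25% of all genes higher. Hist1h1c was at 49.1 and 57.8 CPM in wild type and sufficient GP66+ cells and at 21.5 and 28.6 in CD4-like cells of total 1 and total 2. The log2 difference was 1.18 ± 0.21 and did not pass (edgeR adjusted p = 0.12). Hist1h1b was at 88.5 and 19.9 in wild type and sufficient GP66+ cells, against 28.0 and 25.3, and Hist1h2ae at 79.6 and 12.8, against 20.2 and 12.8. The wild type library alone was high for both, and without it their log2 differences were -0.30 and -0.28, beside 1.04 and 1.46 with it. Without the sufficient library 8 of 46 cluster genes passed as higher and 1 as lower, against 2.65% of all genes higher and 2.83% lower. Without the wild type library 1 cluster gene passed as higher, against 1.24% of all, and without total 2 there was 1 lower, against 0.028% of all. In cycle-low cells alone 0 members passed, against 0.42% of all genes higher.

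Thpok-deleted GP66+ cells were compared with the Thpok-sufficient and wild type ones with day in the model. By edgeR's quasi-likelihood test 0 of 59 cluster genes and 0 of 7 variants passed, against 0.731% of all 10812 genes higher and 0.379% lower. The log2 difference was above 0 for 47 of 59 cluster genes and 6 of 7 variants, with medians of 0.47 and 0.51 beside -0.00 over all genes. At an unadjusted p under 0.05, 7 cluster genes and 4 variants were higher and none was lower, against 8.74% of all genes higher and 8.94% lower, so the 7 of 59 lay near the background. DESeq2 called 2 cluster genes and 1 variant higher, against 2.36% of all genes. Without the wild type library 3 of 46 cluster genes passed as higher, against 2.49% of all. H2afz, for example, was at 1313 and 2384 CPM in deleted cells of day 30 and day 7, against 765 in sufficient cells of day 30 and 1154 and 1435 in sufficient and wild type cells of day 7. Its log2 difference was 0.76 ± 0.15 (edgeR adjusted p = 0.093). Hist1h2ap was at 239 and 94.2 against 47.0, 49.4 and 43.2, with a difference of 1.48 ± 0.29 (edgeR adjusted p = 0.09), and Hist1h2bc at 55.1 and 45.1 against 18.7, 26.5 and 22.1, with 1.06 ± 0.21 (edgeR adjusted p = 0.094). For all 3 genes the deleted library was above the others of its day. Of the 28 replication genes 1 passed, and all 28 were above 0 with a median of 0.98. The deleted libraries also held more cycling cells, as given above, and higher Cd8a, NK cell and, at day 30, erythroid marker levels, and their part in these values was not tested. In cycle-low cells alone 0 cluster genes and 0 variants passed, against 0.96% of all genes higher and 0.347% lower. Whether the difference changed with day was also tested, and 0 of 62 cluster genes and 0 of 7 variants passed, against 0% of all 11338 genes in either direction. There 1 cluster gene was higher at an unadjusted p under 0.05, against 4.9% of all genes.

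Over time, more cluster histones rose than fell, and the variants that passed the test fell. Comparing GP66+ cells of day 30 with those of day 7, with genotype in the model, 14 of 59 cluster genes rose and 2 fell, against 9.97% of all 10812 genes higher and 11.9% lower. Of 7 variants 0 rose and 3 fell. The cluster median was 0.83 on the log2 scale and the variant median -0.38, beside 0.03 over all genes. Of the 13 H4 genes tested 7 rose and 1 fell, of 11 H3 genes 3 rose, of 16 H2A genes 2 rose, of 14 H2B genes 1 rose, and of 5 H1 genes 1 rose and 1 fell. Replication and mitosis genes went the other way, with 22 of 28 and 24 of 25 lower at day 30, and 1 replication gene higher. The 2 libraries of day 30 are the shallowest, so many of these calls rest on few UMIs, and each group is 1 library, so p-values cover the spread between these 5 libraries only. The low-count filter of the test keeps a gene that reaches its cutoff in only some libraries. Hist1h4n, Hist1h4m and Hist2h3b reached it at day 30 alone, so only a rise could be called for them. Without the wild type library 20 of 46 cluster genes rose, 3 fell and 3 variants fell, against 14.2% of all genes higher and 14.5% lower. Without the sufficient library of day 7 the counts were 9 of 47, 1 and 1, against 5.27% and 4.53%. Without the deleted library of day 7, or without either library of day 30, 0 cluster genes and 0 variants passed in either direction, and 0% of all genes did.

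Hist1h1c is the exception in depth, with 415 and 171 UMIs in the deleted and sufficient day 30 libraries and 562, 797 and 700 in the deleted, sufficient and wild type libraries of day 7. It rose by 1.43 ± 0.22 on the log2 scale (edgeR adjusted p = 0.017). At 1500 UMIs per cell, 22.3% and 14.3% of day 30 cells had a Hist1h1c UMI, against 9.40%, 9.55% and 6.10% at day 7 (without thinning, 32.2% and 17.4% against 29.2%, 24.1% and 20.8%). Outside cells its level was 201 and 126 CPM at day 30 and 120.4, 109 and 36.7 at day 7, so RNA outside cells followed the same order of days. It was above the level in cells, given earlier, in every GP66+ library but the wild type one. The part of RNA from outside cells in the rise was not tested. Hist1h1b did the opposite, at 6.54 and 6.44 CPM against 54.6, 21.7 and 84.2, with a log2 difference of -2.86 ± 0.72 (edgeR adjusted p = 0.046). These rest on 14 and 10 UMIs at day 30. Neither gene passed without the deleted library of day 7 or without either library of day 30.

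The H4 genes were the largest family among those that rose. Among them, only a rise could be called for Hist1h4n and Hist1h4m, as given above. Hist1h4c was at 36.0 and 19.98 CPM in deleted and sufficient cells of day 30, against 8.93, 5.05 and 7.90 in deleted, sufficient and wild type cells of day 7, and it rose by 1.98 ± 0.24 (edgeR adjusted p = 0.012). Hist2h4 was at 14.9 and 16.1 against 3.62, 3.61 and 3.43, a rise of 2.31 ± 0.26. Hist1h4n was at 10.3 and 12.2, from 22 and 19 UMIs, against 0.452, 0.882 and 0.839, a rise of 4.23 ± 0.37 (edgeR adjusted p = 0.0089). In these 3 genes, named because they passed the test, no day 7 library reached a day 30 library. How many of all genes show this was not counted. Hist4h4 was at 21.5 and 14.8 against 5.65, 6.02 and 3.64, a rise of 1.93 ± 0.35. Hist1h4m had 16 and 2 UMIs at day 30 and 0, 0 and 1 at day 7, so that its call rests mostly on the deleted library. Hist1h4i, which has the most UMIs of the H4 genes, fell, with 25.7 and 14.2 CPM against 54.9, 30.5 and 36.7 and a log2 difference of -0.999 ± 0.17.

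Of the H3 and H2A genes, Hist1h3e was at 18.2 and 11.0 CPM at day 30 in deleted and sufficient cells, against 5.43, 5.13 and 5.74 at day 7, a rise of 1.54. Hist2h3b, for which only a rise could be called, was at 5.603 and 6.44 against 1.02, 0.802 and 0.769, a rise of 2.95 ± 0.46. Hist2h2aa1 was at 22.4 and 11.6 against 3.96, 4.01 and 1.61, a rise of 2.43 ± 0.50. The groups did not overlap for any of these, which were named because they passed the test. The share of all genes without overlap was not counted. Hist1h3a, Hist1h4b, Hist1h4h, Hist1h2ac and one of the 2 entries named Hist2h2bb rose by 1.47 to 1.84. Of the 14 genes that rose 12 held the stem-loop motif and 7 shared at least 50% of their 57-base words with other genes, beside 40 and 29 of the 59 tested, and 4 lie on chromosome 3 and 9 on chromosome 13, beside 10 and 45.

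The 3 variants that fell were H2afv by 0.98 ± 0.15, H2afx by 0.86 ± 0.15 and H2afz by 0.61 ± 0.15 on the log2 scale, the same 3 variants with the largest differences between replication-high and cycle-low cells. H3f3b at 0.57 ± 0.18 did not pass (edgeR adjusted p = 0.078). Of the genes that act on histones 6 of 17 chaperones fell and 1 rose, with Asf1b at -2.70 and Chaf1a at -2.31, and 4 of 10 genes of message processing fell, with Slbp at -0.89 ± 0.13. Over all genes 11.9% were lower and 9.97% higher at day 30.

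Because cycling cells were fewer at day 30, the comparison was repeated in cycle-low cells, an alternative chosen after the data were seen. There 14 of 25 cluster genes tested rose and 0 fell, with a median of 2.1704, against 8.47% of all 8645 genes higher and 9.08% lower. The low-count filter of the test can keep a gene that reaches its cutoff in the day 30 libraries alone. Hist1h1b, which fell over all cells, was not among the genes tested. The counts and the median thus partly reflect which genes the filter kept. Of the 14 genes that rose over all cells 13 could be tested and 11 rose again, and Hist2h2ac, Hist1h2ap and Hist1h2al, all H2A genes, rose in cycle-low cells alone of the 2 comparisons. Hist1h2ap in cycle-low cells was at 31.1 and 9.93 CPM at day 30, against 4.37, 1.83 and 0.762 at day 7. Over all cells its log2 difference was 0.83 ± 0.30 and did not pass (edgeR adjusted p = 0.1), and it was -1.24 without the top 5% of cells by UMIs. None of the 7 variants passed in cycle-low cells, where the log2 differences of H2afx and H2afz were 0.48 and 0.39 and that of Hist1h4i, which did not pass either, was 0.27. Cluster sums of cycle-low cells were 759 and 462 CPM in deleted and sufficient cells at day 30 and 279, 211 and 157 in deleted, sufficient and wild type cells at day 7. They were 671, 433, 269, 206 and 155 without Hist1h2ap and Hist1h2al. Both sums of day 30 lay above all 3 of day 7. Outside cells the cluster sums were 637, 501, 672, 455 and 403 in the same order, so the level in cycle-low cells was above that outside cells in the deleted day 30 library and below it in the other 4. Summed erythroid markers in cycle-low cells were at 10099 and 2.71 CPM in the deleted and sufficient libraries of day 30 and at 5.83, 7.17 and 0.305 in the deleted, sufficient and wild type libraries of day 7. The part of RNA from outside cells and of erythroid RNA in these sums was not tested.

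**Figure D5:**
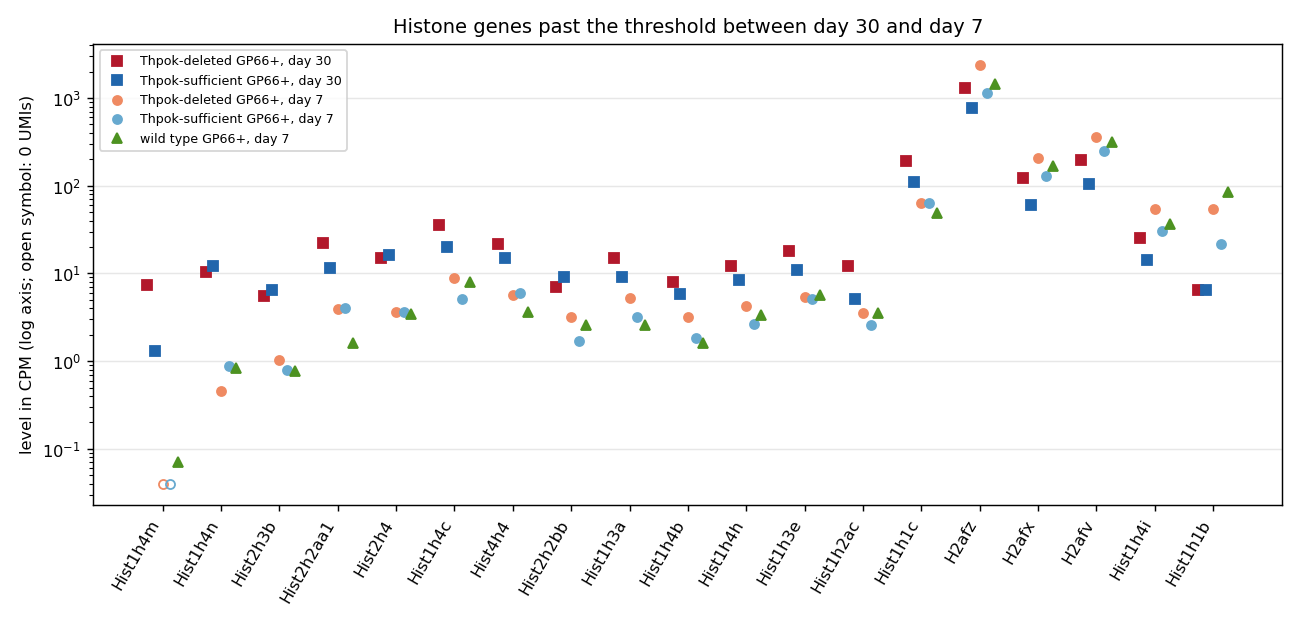
Levels of the histone genes that rose or fell between day 7 and day 30, in CPM on a log axis, with 1 point per GP66+ library. Points of the 2 day 30 libraries lie above all 3 of day 7 for Hist1h4c, Hist2h4 and Hist1h1c and below them for Hist1h1b, and open symbols stand for 0 UMIs.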

How the data were processed

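Spleen T cells were profiled with 10x Single Cell 3′ v2 chemistry. Per the submitters' processing notes, reads were made with bcl2fastq 2.17 and counted with Cell Ranger (version not given in the sources used here) on mm10. The authors deposited raw UMI counts for all 737280 barcodes of each well, not normalized. From these, a barcode was kept as a cell if its UMIs reached 10% of the 99th percentile over its well's 3000 largest barcodes, if 500 or more genes were seen, and if mitochondrial UMIs were no more than 10%. They were clustered with scanpy 1.11.5, B-like and myeloid-like clusters (194 cells of total 1 and 12 of total 2) were left out, an NK-like cluster was kept, and cells were called CD4-like or CD8-like from Cd4 and Cd8 markers. Doublets were not called. UMIs of each library and class were added up for edgeR 4.0.16 (quasi-likelihood test, TMM, low-count filter, Benjamini-Hochberg at 0.05 over all genes). SE is the size of the log2 difference divided by the square root of F. DESeq2 1.42.0 was an alternative. The method was tested on simulated counts for the genotype and day design and the class design only. Changes were set in genes of higher level alone, with a spread below that of the genotype and day fit. That test therefore does not cover low-count members. Values in every library are given for the 10 cluster and 8 variant members with the highest mean level and for named members past the threshold. Members and lists were chosen with earlier results of these data known, and tests of these data are no independent support for them.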

Additional observations from a re-analysis of the deposited data

How the results depend on the processing

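The directions of called histone genes held under most alternatives, and counts of calls moved. Between CD8-like and CD4-like cells, 11 cluster genes higher became 5 with DESeq2, 1 with no replicate block and 5 in cycle-low cells, the 1 lower became 0 in these 3 settings and with no filter, 5 variants higher became 2 with no replicate block, and 0 variants lower became 2 in cycle-low cells. There a left-out library leaves no residual degrees of freedom, so that fit was not made. Library was the replicate block in the lineage and class comparisons because both classes come from the same library. Without it 40 cluster genes higher in replication-high cells became 20, 28 in mitosis-high cells became 4, and 5 variants there became 3. Genotype and day were fitted together, so that without the wild type library the fit pairs the deleted and sufficient libraries of each day, and 3 cluster genes then passed for genotype. No paired analysis was possible because no number pairs the libraries, for GP66+ against total cells.

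For GP66+ against total cells, 0 cluster genes higher became 1 with DESeq2, 7 with no filter and 0 to 8 when 1 library was left out (8 without the sufficient library), and 0 lower became 2 with no filter and 0 to 1. For genotype, 0 cluster genes became 2 with DESeq2, 4 with no filter and 0 to 3 with a library left out (3 without the wild type library), and 0 variants became 1 with DESeq2 and 1 with no filter. For day, 14 cluster genes higher ranged from 0 to 20 with a library left out (20 without wild type, 9 without the sufficient and 0 without the deleted day 7 library, and 0 without either day 30 library). The 2 lower ranged from 0 to 3 and became 6 with no filter and 4 without the top 5% of cells. They became 0 in cycle-low cells, where Hist1h1b was not tested. The 3 variants lower ranged from 0 to 3, became 2 with RLE size factors and 0 in cycle-low cells. In mitosis-high cells 28 cluster genes higher became 17 with DESeq2 and 20 to 28 with a library left out. In replication-high cells 0 lower became 1 with no filter and 0 to 1 with a library left out.

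Signs turned as follows. In cycle-low cells the lineage difference was -0.64 for H2afx, -0.014 for Hist1h1c and -0.29 for Hist1h1e, and that of day 0.48 for H2afx, 0.39 for H2afz and 0.27 for Hist1h4i. Without wild type, the difference between GP66+ and total cells was -0.30 for Hist1h1b and -0.28 for Hist1h2ae, and without total 1 it was 0.52 for Hist1h2ap. With each library left out in turn these ranged from -0.30 to 1.71, -0.28 to 2.21 and -3.53 to 0.52. Without the top 5% of cells the day difference was -0.045 for Hist1h2al and -1.24 for Hist1h2ap (edgeR adjusted p = 0.039). With no replicate block the replication difference was -0.28 for Hist1h1c and -0.066 for Hist4h4. H2afy in mitosis-high cells ranged from -0.060 to 0.034 with a library left out, 0.0071 among them, and was 0.028 at a threshold of 3 UMIs and 0.025 at 6. The cause of these changes was not tested. Depth limits the day 30 libraries, where a count of 3 UMIs stands for 1.40 and 1.93 CPM, and each GP66+ group is 1 library. Leaving out the NK-like cells changed no count between CD8-like and CD4-like cells.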
